A study of Mus musculus with 6 samples.

Results

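The genes described here are the Wnt ligands, their receptors and their secreted antagonists, with the main genes of ligand release, receptor turnover and beta-catenin signalling. They were chosen by symbol alone: all Wnt, Fzd, Sfrp and Dkk genes, Rspo1 to Rspo4, Lgr4 to Lgr6, and a named set (Lrp5, Lrp6, Ror1, Ror2, Porcn, Wls, Rnf43, Znrf3, Wif1, Axin1, Axin2, Ctnnb1, Apc, Lef1 and Tcf7). The rule reads symbols and no measured value, was set with earlier results of these data known, and took in 59 of the 24054 gene rows of the count table. RNA of mouse salivary gland was sequenced in 2 groups with 3 libraries each. In K5-rtTA:TetO-RANKL mice, called K5-RANKL here, the keratin 5 promoter of basal epithelial cells drives a doxycycline-dependent activator that switches on a transgene for RANKL, a TNF family cytokine encoded by Tnfsf11. The controls were monogenic, and which of the transgenes they carried is not given in the sources used here. All animals of both groups took doxycycline by food and water for 2 weeks, starting at 9 weeks of age, so that the drug itself was shared by the groups. A library held RNA pooled from the salivary glands of 5 mice, and the spread between libraries is therefore a spread between pools.

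Wnt proteins are lipid-modified ligands that act over short distances. Porcupine (Porcn) attaches the lipid, and Wntless (Wls) carries the ligand to the cell surface. Canonical ligands bind a Frizzled receptor together with Lrp5 or Lrp6, which stops the destruction complex of Axin and Apc from removing beta-catenin (Ctnnb1), and beta-catenin then works with Tcf7 and Lef1 at target genes. Other ligands signal through Ror1 and Ror2 without beta-catenin. Rnf43 and Znrf3 are ubiquitin ligases that remove Frizzled from the surface, and R-spondins bound to Lgr receptors block them. Secreted Sfrp proteins and Wif1 bind the ligands, while Dkk1 binds Lrp5 and Lrp6. In salivary gland, Wnt signalling is known for its part in branching of the ducts and in the upkeep of progenitor cells.

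The libraries held between 13875951 and 17921815 counts. Levels are in CPM, a gene's counts per library size after TMM scaling, which sets the bulk of genes equal between libraries. A gene was called when its Benjamini-Hochberg adjusted p in edgeR's quasi-likelihood test, over all 14044 genes that passed the filter on low counts, was under 0.05. The 2 groups differed widely: 66.2% of all tested genes were called, 34.2% higher in K5-RANKL and 32.1% lower. The scaling bears on every direction given here. Without TMM, by library totals only, the median log2 fold change of all tested genes was 1.01 instead of 0.01, and 83.5% of genes were called higher and 4.97% lower. Tnfsf11 checked the labels, at 3.78, 1.86 and 0.939 CPM in the controls and 702, 405 and 723 CPM in K5-RANKL. K5-RANKL 2 was the lowest of its group for Tnfsf11 and also for Krt5, the keratin of basal cells, at 398, 161 and 368 CPM against 37.2 to 39.3 CPM in the controls.

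Marker lists show how the tissue differed, and their part in the results below was not tested. Acinar markers fell in 10 of 10, with a summed level of 182755 to 227067 CPM in the controls and 24780 to 34976 CPM in K5-RANKL. Of the 10 duct markers 4 rose (Krt8, Krt18, Krt19 and Cftr) and 6 fell. Their sum went from 22256 to 24030 CPM down to 7323 to 9415 CPM. Most of that sum was Klk1, at a mean of 21387 CPM in the controls and 7237 CPM in K5-RANKL, so that it mainly follows this gene. The 9 basal and myoepithelial markers split into 4 higher (Krt5, Krt14, Krt17 and Trp63) and 4 lower (Cnn1, Acta2, Mylk and Oxtr), with sums of 451 to 462 CPM and 707 to 1224 CPM. The rise of that sum mainly follows Krt5, Krt14 and Krt17. Their means were 37.9, 35.6 and 8.39 CPM in the controls and 309, 215 and 199 CPM in K5-RANKL. Fibroblast markers rose in 9 of 10 (636 to 840 CPM against 2803 to 3262 CPM), macrophage markers in 7 of 7 (187 to 214 CPM against 1069 to 1106 CPM) and T cell markers in 7 of 8 (87.5 to 92.1 CPM against 189 to 211 CPM). Endothelial markers were split, 2 higher and 2 lower of 8, smooth muscle and pericyte markers were 3 higher and 1 lower of 6 (71.2 to 92.8 CPM against 115 to 134 CPM), and none of the 6 adipocyte markers was called. Of 6 Schwann cell and nerve markers 2 fell and none rose, and their sum went from 95.3 to 104 CPM down to 46.7 to 52.9 CPM. Skeletal muscle markers, 1 of 6 tested called higher, summed to 7.95 to 81.9 CPM in the controls and 103 to 166 CPM in K5-RANKL, with control 2 the lowest. The summed acinar and duct markers, which define salivary gland, were well above 0 in every library. In bulk tissue, fewer cells of a type and less RNA per cell cannot be told apart. The acinar falls ranged from 3.42-fold for Prol1 to 75.8-fold for Bpifa2. Which salivary glands were pooled is not given in the sources used here, and the mix of glands in a pool was not tested.

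Of the 59 genes, 47 passed the filter on low counts. Of these 47, 19 were called higher in K5-RANKL (40.4%, beside 34.2% of all tested genes) and 15 lower (31.9%, beside 32.1%), and 13 were not called. By library totals 34 were called higher and 4 lower, beside 83.5% and 4.97% of all tested genes. Without control 2, the library lowest in muscle markers, 16 were higher and 14 lower, beside 4605 and 4339 of all 14332 genes tested. The median log2 fold change over the 47 was 0.15, beside 0.01 over all tested genes. A change of at least 2-fold was called higher in 9 of the 47, where the share over all genes was 16.9%, and lower in 6, where it was 9.01%. The K5-RANKL libraries lay wholly above the controls for 20 of the 47 genes and wholly below for 15, against 36.3% and 34.1% of all tested genes. By role, ligands were 7 higher and 1 lower of 11 tested, antagonists 6 higher and 1 lower of 7, receptors 4 higher and 6 lower of 14. Of the 7 R-spondin, Lgr and ubiquitin ligase genes tested, 5 were lower and none was higher. Both genes of ligand release were lower, and of the 6 intracellular genes 2 were higher and none was lower. By library totals these splits became 10 higher and 1 lower for ligands, 6 and 1 for antagonists, 9 and 1 for receptors, 2 and 1 for the R-spondin group, 1 and 0 for release, and 6 and 0 for the intracellular genes. Under that scaling 83.5% of all tested genes were called higher and 4.97% lower. The counts by role are descriptions, and no difference between roles was tested.

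**Figure D1:**
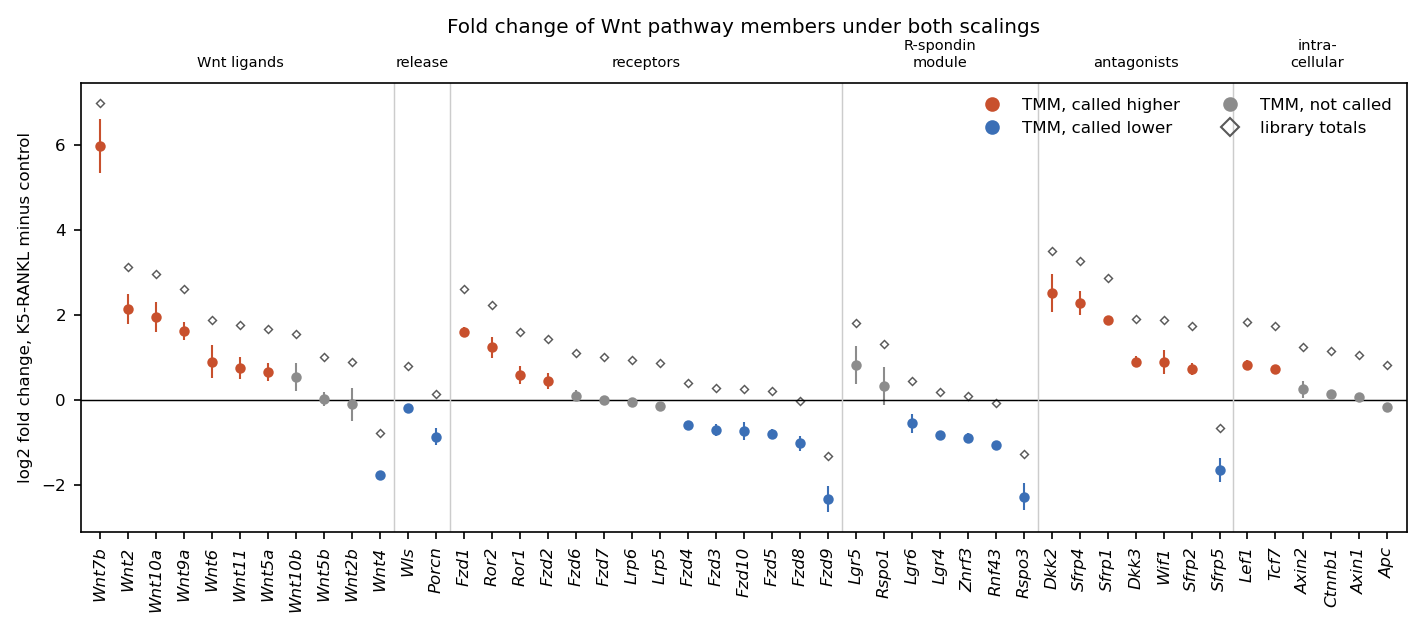
Log2 fold change (K5-RANKL minus control, vertical axis) of the 47 genes tested, ordered by role, with filled points for TMM scaling (red called higher, blue called lower, grey not called, bars ± 1 standard error) and open diamonds for library totals. The diamonds sit about 1 log2 unit above the points, so that all 19 genes called higher keep their direction, while of the 15 called lower only Wnt4, Rspo3, Sfrp5 and Fzd9 stay called lower.

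Among the ligands, Wnt7b changed most and Wnt4, the most abundant ligand of the control gland, fell. Wnt7b (15:85535437-85581821, minus strand, RefSeq GRCm38.p6) is a canonical ligand of developing and repairing epithelia. It stood at 0.461, 0.295 and 0.469 CPM in the controls, 14 reads in all, and at 33.0, 15.6 and 30.7 CPM in K5-RANKL, 1744 reads in all. The groups lay far apart, and K5-RANKL 2 was the lowest of its group. The mean went from 0.408 ± 0.0986 to 26.4 ± 9.41 CPM (SD, n = 3), a log2 fold change of 5.98 ± 0.63 (SE), or 63.1-fold, with an adjusted p of 0.00057 in edgeR's quasi-likelihood test. Left-out libraries moved this log2 fold change between 5.78 and 6.23. The exons of Wnt7b overlap those of AU022754 on the opposite strand, a row that held 0, 1 and 0 reads in the controls and 9, 3 and 5 in K5-RANKL.

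Wnt4 (4:137277635-137299501, plus strand) acts in gland branching and in kidney and gonad formation. Its level was 67.1, 66.8 and 76.7 CPM in the controls and 20.7, 20.9 and 20.5 CPM in K5-RANKL. The 3 K5-RANKL libraries were nearly equal and all lay far below the controls. The mean fell from 70.2 ± 5.63 to 20.7 ± 0.182 CPM (SD, n = 3), 3.40-fold lower (log2 fold change -1.76 ± 0.08, edgeR adjusted p = 5.41e-12), and by library totals it also stayed lower, at -0.77. Acinar and duct marker sums fell in the same libraries, the duct sum being mostly Klk1. Singly, 4 of the 10 duct markers were higher and 6 lower, and the part of either cell type was not tested.

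The next 3 ligands by size of change were also higher. Wnt2, a canonical ligand made in mesenchyme of several organs, held 0.369, 0.393 and 0.469 CPM in the controls and 2.16, 1.34 and 2.00 CPM in K5-RANKL. The groups did not overlap, and the rise was 4.42-fold (log2 fold change 2.14 ± 0.36, edgeR adjusted p = 4.71e-05). Wnt10a, a ligand of skin appendages and teeth, held 1.38, 0.982 and 0.782 CPM in the controls and 4.57, 2.30 and 5.17 CPM in K5-RANKL. Again the groups were apart and K5-RANKL 2 was lowest in its group. Its rise was 3.89-fold (log2 fold change 1.96 ± 0.35, edgeR adjusted p = 0.000193). Wnt9a, known from joint and skeletal development, held 1.75, 1.96 and 1.33 CPM in the controls and 5.64, 4.60 and 5.13 CPM in K5-RANKL. No library of either group came near the other, and the rise was 3.09-fold (log2 fold change 1.63 ± 0.21, edgeR adjusted p = 2.64e-06).

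Wnt5a, Wnt11 and Wnt6 were called with smaller changes. Wnt5a, the main ligand of Ror receptors, went from 3.14 ± 0.0873 to 4.94 ± 1.22 CPM (log2 fold change 0.66 ± 0.21, edgeR adjusted p = 0.00923). Wnt11, also a noncanonical ligand, went from 2.95, 1.57 and 1.17 CPM in the controls to 3.20, 3.10 and 3.22 CPM in K5-RANKL (log2 fold change 0.76 ± 0.27, edgeR adjusted p = 0.0185). Control 1 lay close to the K5-RANKL level, and the call was lost without control 2 (adjusted p = 0.0783) or without control 3 (adjusted p = 0.138). Wnt6, which lies next to Wnt10a on chromosome 1, held 0.461, 0.785 and 0.391 CPM in the controls and 1.08, 0.749 and 1.16 CPM in K5-RANKL. Its groups overlapped, and its call (log2 fold change 0.91 ± 0.38, edgeR adjusted p = 0.0447) was lost in 6 of the 15 alternative settings.

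Wnt10b, Wnt5b and Wnt2b were tested and not called. Wnt5b, a noncanonical ligand, was 5.03 ± 0.733 CPM in the controls and 5.16 ± 0.167 CPM in K5-RANKL (log2 fold change 0.03 ± 0.16). Wnt10b had a log2 fold change of 0.55 ± 0.33 (edgeR adjusted p = 0.149). Wnt2b was at -0.10 ± 0.38, and at 0.89 by library totals. The other 8 ligand genes did not pass the filter. Summed over the 3 libraries of a group, Wnt16 had 1 read in the controls and 6 in K5-RANKL, Wnt9b 1 and 6, Wnt3 3 and 6, Wnt1 1 and 2, and Wnt3a 0 and 3. Wnt7a, Wnt8a and Wnt8b had none in any library. A level of 3 reads corresponds to at most 0.295 CPM in a control library and 0.161 CPM in a K5-RANKL library, so differences in these genes were not detectable at this depth.

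**Figure D2:**
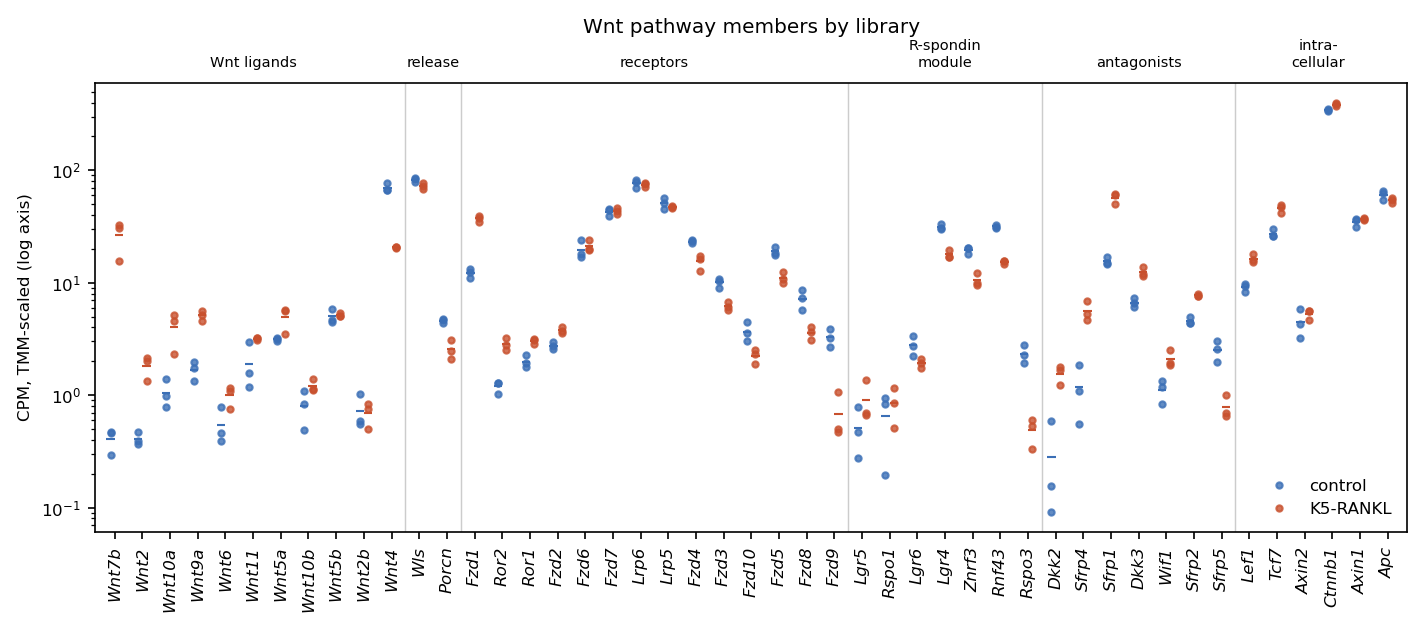
CPM after TMM scaling (log axis) in each library for the 47 genes tested, grouped by role, with blue points for the 3 controls, red points for the 3 K5-RANKL libraries and dashes for group means. Wnt7b rises from under 0.5 to between 15.6 and 33.0 CPM, and Wnt4 goes from between 66.8 and 76.7 CPM to near 20.7 CPM.

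Levels of different ligands can be compared per length of transcript, and shares of the summed ligand level do not depend on how libraries are scaled to each other. Per kilobase of exon, Wnt4 made up 76.1%, 77.8% and 78.7% of the summed level of all 19 ligands in the controls and 23.1%, 31.8% and 23.3% in K5-RANKL. Wnt7b made up 0.475%, 0.312% and 0.438% in the controls and 33.5%, 21.6% and 31.7% in K5-RANKL. Wnt7b thus passed Wnt4 in K5-RANKL 1 and 3 and stayed below it in K5-RANKL 2, with ratios of Wnt7b to Wnt4 of 1.45, 0.681 and 1.36, where the controls had 0.00401 to 0.00624. In a two-sided exact permutation test the shares of both genes reached p = 0.1, the smallest that 3 against 3 libraries allow. Wnt5b, in the second place in the controls, kept a similar share, 8.75 ± 0.665% against 10.3 ± 2.22% (SD, n = 3). The summed ligand level itself, after TMM scaling, was 21.0, 20.4 and 23.2 CPM per kb in the controls. In K5-RANKL it was 21.3, 15.7 and 20.9 CPM per kb, with overlapping groups (exact permutation p = 0.5). Without Wnt7b and Wnt4, the sum of the other ligands went from 4.75 ± 0.244 to 8.65 ± 1.18 CPM per kb (exact permutation p = 0.1). Both sums, unlike the shares, depend on the scaling. TMM factors were 0.677 to 0.735 in the controls and 1.32 to 1.47 in K5-RANKL. By library totals the K5-RANKL sums therefore stand higher relative to the controls.

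**Figure D3:**
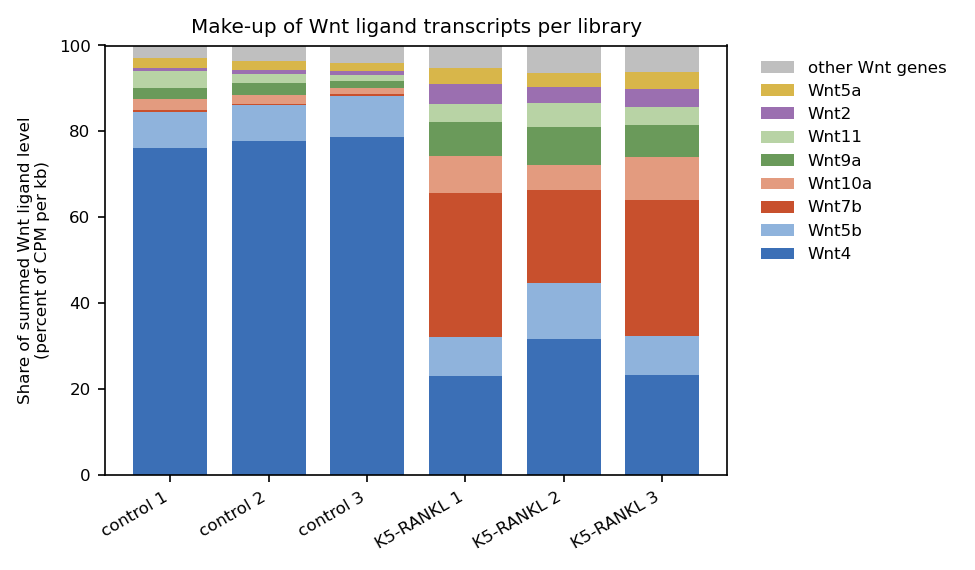
Share of each Wnt ligand in the summed ligand level of a library, in percent of CPM per kilobase of exon, for the 3 control and 3 K5-RANKL libraries, with 1 stacked bar per library that adds up to all ligands. Wnt4 (dark blue) takes over 76% of each control bar and 23.1% to 31.8% of each K5-RANKL bar, where Wnt7b (dark red) takes 21.6% to 33.5%.

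K5-RANKL 2 was the lowest of its group for Krt5, as it was for all 7 ligands called higher, Wnt7b and Wnt10a among them. It was also the lowest for Fzd1, Sfrp1, Sfrp4, Dkk2 and Dkk3, but not for Sfrp2, Wif1, Ror2, Lef1 or Tcf7. The low place of this library was thus not particular to Wnt7b and Wnt10a. Per 100 CPM of Krt5, Wnt7b was 1.17, 0.792 and 1.26 CPM in the controls and 8.28, 9.68 and 8.32 CPM in K5-RANKL. The ratio was higher in every K5-RANKL library than in any control, and varied less among the K5-RANKL libraries than Wnt7b itself. Wnt10a per 100 CPM of Krt5 went the other way, from 3.52, 2.64 and 2.10 CPM in the controls to 1.15, 1.43 and 1.40 CPM. Both ratios had an exact permutation p of 0.1, the smallest possible, and neither depends on library scaling. Which cells made these transcripts was not measured.

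Both genes of ligand release were called lower. Wls had 84.0, 79.0 and 84.8 CPM in the controls and 68.7, 72.8 and 76.6 CPM in K5-RANKL. The groups did not overlap but lay close, and the log2 fold change of -0.19 ± 0.07 (edgeR adjusted p = 0.0343) turned to 0.81, called higher, by library totals. The call was also lost without the filter, with voom and without control 1, control 3 or K5-RANKL 1. Porcn went from 4.58 ± 0.147 to 2.55 ± 0.511 CPM (log2 fold change -0.85 ± 0.20, edgeR adjusted p = 0.000941), and was at 0.14 and not called by library totals.

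Of the receptors, Fzd1 rose most, and several other Frizzled genes fell under TMM scaling. Fzd1 (5:4753839-4758216, minus strand) had 12.4, 13.2 and 11.1 CPM in the controls and 39.3, 34.9 and 37.8 CPM in K5-RANKL. The groups were well apart with little spread in each. The mean went from 12.2 ± 1.04 to 37.3 ± 2.27 CPM (SD, n = 3), a 3.07-fold rise (log2 fold change 1.62 ± 0.10, edgeR adjusted p = 1.49e-10). Per kilobase of exon, Fzd1 went from 2.92 to 8.90 CPM per kb, near Fzd7, which had the highest mean of the Frizzled genes in both groups at 9.49 and 9.56 CPM per kb. Fzd7 itself had a log2 fold change of 0.01 ± 0.08, and Fzd6 one of 0.11 ± 0.12, neither called.

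Ror2, Ror1 and Fzd2 were called higher as well. Ror2, a tyrosine kinase receptor of Wnt5a, held 1.29, 1.28 and 1.02 CPM in the controls and 2.78, 3.21 and 2.52 CPM in K5-RANKL. The groups did not overlap (log2 fold change 1.25 ± 0.25, edgeR adjusted p = 0.000274). Ror1 went from 1.99 ± 0.255 to 3.05 ± 0.160 CPM (log2 fold change 0.60 ± 0.21, edgeR adjusted p = 0.0196), a call lost with DESeq2 and without control 1, control 2 or K5-RANKL 3. Fzd2 went from 2.76 ± 0.184 to 3.78 ± 0.251 CPM (log2 fold change 0.45 ± 0.19, edgeR adjusted p = 0.0421), a call lost in 8 settings. Ryk, another receptor of noncanonical ligands, named after its values were seen, was called lower (log2 fold change -0.42 ± 0.08, edgeR adjusted p = 0.000227). Receptors of this kind thus did not move one way under TMM scaling. By library totals Ror2 (2.24), Ror1 (1.60) and Ryk (0.57) were all higher. Fibroblast marker sums were higher in the same libraries, and their part in the rises of Ror2, Ror1 and Fzd2 was not tested.

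Fzd9 fell most of the receptors, from 2.67, 3.24 and 3.91 CPM in the controls to 0.498, 1.07 and 0.466 CPM in K5-RANKL. The groups did not overlap (log2 fold change -2.31 ± 0.31, edgeR adjusted p = 3.52e-06), and the gene was still called lower by library totals, at -1.32. The other 5 called lower did not keep the call by library totals. Fzd8 had 8.66, 5.69 and 7.35 CPM in the controls and 3.11, 4.01 and 3.68 CPM in K5-RANKL, with no overlap (log2 fold change -1.02 ± 0.18, edgeR adjusted p = 7.7e-05, and -0.02 by library totals). Fzd5, a receptor of epithelia, had 18.5, 20.6 and 17.8 CPM in the controls and 10.7, 12.4 and 9.97 CPM in K5-RANKL. These groups were apart too (log2 fold change -0.78 ± 0.11, edgeR adjusted p = 6.81e-06, turning to 0.21 by library totals). Fzd4, the Norrin receptor of vessels, had 23.3, 22.4 and 23.9 CPM in the controls and 12.7, 16.3 and 17.4 CPM in K5-RANKL. Its log2 fold change of -0.59 ± 0.11 (edgeR adjusted p = 0.000158) turned to 0.41, called higher, by library totals. Fzd3, best known from axon guidance, had 8.94, 10.9 and 10.4 CPM in the controls and 6.10, 5.67 and 6.76 CPM in K5-RANKL. It did not overlap between groups (log2 fold change -0.70 ± 0.13, edgeR adjusted p = 0.000182), and was at 0.29 by library totals. Fzd10 had a log2 fold change of -0.73 ± 0.21 (edgeR adjusted p = 0.00641, and 0.27 by library totals), and lost the call without control 3 (adjusted p = 0.0585).

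The co-receptors Lrp5 and Lrp6 were not called. Lrp6 was 76.6 ± 6.72 CPM in the controls and 74.7 ± 3.38 CPM in K5-RANKL (log2 fold change -0.04 ± 0.08, and 0.96 by library totals). Lrp5 was 51.4 ± 5.67 and 47.1 ± 0.870 CPM (log2 fold change -0.13 ± 0.08, and 0.87 by library totals), and was called lower without control 1 (adjusted p = 0.0307).

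The genes that set the amount of Frizzled at the cell surface were lower under TMM scaling. Rnf43 had 31.6, 30.7 and 32.9 CPM in the controls and 15.6, 14.7 and 15.5 CPM in K5-RANKL. The spread was small in both groups and they were far apart (log2 fold change -1.06 ± 0.08, edgeR adjusted p = 6.85e-09, and -0.06, not called, by library totals). Znrf3 had 20.4, 20.4 and 18.1 CPM in the controls and 9.96, 12.2 and 9.60 CPM in K5-RANKL. It showed no overlap (log2 fold change -0.89 ± 0.11, edgeR adjusted p = 1.89e-06), and turned to 0.10, not called, by library totals. Lgr4, the most abundant Lgr receptor here per kilobase, had 29.8, 33.6 and 30.7 CPM in the controls and 17.0, 17.1 and 19.5 CPM in K5-RANKL. These groups did not overlap either (log2 fold change -0.81 ± 0.09, edgeR adjusted p = 4.83e-07), and it turned to 0.19, not called, by library totals.

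Rspo3, the R-spondin with the most reads in the control gland, fell under both scalings. It had 1.94, 2.26 and 2.82 CPM in the controls and 0.332, 0.535 and 0.606 CPM in K5-RANKL. All K5-RANKL libraries lay below all controls. The fall was 4.81-fold (log2 fold change -2.27 ± 0.31, edgeR adjusted p = 5.21e-06), and -1.27 on the log2 scale by library totals. Lgr6 had a log2 fold change of -0.54 ± 0.23 (edgeR adjusted p = 0.0454, a call lost in 7 settings, and 0.45 by library totals). Lgr5, a receptor of stem cells in several epithelia, was at 0.510 ± 0.257 and 0.904 ± 0.388 CPM and not called (log2 fold change 0.83 ± 0.45, edgeR adjusted p = 0.109). Rspo1 was at 0.33 ± 0.45 on the log2 scale and not called. Rspo2, with 1 read in the controls and 10 in K5-RANKL, and Rspo4, with 0 and 3, did not pass the filter. Summed over the 9 genes of this group, the level went from 17.3 ± 0.381 to 9.40 ± 0.191 CPM per kb (exact permutation p = 0.1, the smallest possible), a sum that depends on the scaling as its main members do.

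The secreted antagonists were higher, with Sfrp5 as the exception among the 7 tested. Sfrp1 (8:23411383-23449632, plus strand), the most abundant of them in both groups per kilobase, had 14.8, 17.0 and 14.6 CPM in the controls and 60.0, 49.7 and 61.3 CPM in K5-RANKL. The groups were far apart. The mean went from 15.5 ± 1.30 to 57.0 ± 6.35 CPM (SD, n = 3), a 3.69-fold rise (log2 fold change 1.89 ± 0.10, edgeR adjusted p = 4.16e-11). Sfrp4, a matrix-associated member of the same family, had 0.553, 1.87 and 1.10 CPM in the controls and 6.93, 4.65 and 5.31 CPM in K5-RANKL. The groups did not overlap (log2 fold change 2.29 ± 0.29, edgeR adjusted p = 4.39e-06). Dkk2 had 0.0922, 0.589 and 0.156 CPM in the controls and 1.66, 1.23 and 1.77 CPM in K5-RANKL. Control 2 was well above the other controls but below every K5-RANKL library. The log2 fold change of Dkk2 was 2.52 ± 0.46 (edgeR adjusted p = 0.000107), and 3.55 without control 2.

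Dkk3, which differs from other Dkk proteins in that it is not a typical Wnt antagonist, had 6.54, 7.26 and 6.10 CPM in the controls and 13.8, 11.4 and 11.9 CPM in K5-RANKL. No K5-RANKL library reached down to a control (log2 fold change 0.91 ± 0.13, edgeR adjusted p = 8.87e-06). Sfrp2 had 4.42, 4.42 and 4.93 CPM in the controls and 7.55, 7.65 and 7.92 CPM in K5-RANKL. Its groups were tight and apart (log2 fold change 0.74 ± 0.14, edgeR adjusted p = 0.000193). Wif1, which binds Wnt ligands directly, went from 1.11 ± 0.257 to 2.11 ± 0.353 CPM (log2 fold change 0.90 ± 0.28, edgeR adjusted p = 0.00845). Sfrp5 went down from 2.58, 3.04 and 1.96 CPM in the controls to 0.996, 0.696 and 0.652 CPM in K5-RANKL. The groups were apart, and the fall was 3.14-fold (log2 fold change -1.65 ± 0.28, edgeR adjusted p = 6.17e-05), with -0.66 by library totals (adjusted p = 0.043). Dkk1 had 1 read, in K5-RANKL 2, and Dkk4 none. Fibroblast markers, 9 of 10 of them higher, moved in the same libraries as the antagonists, and their part was not tested.

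Per kilobase of exon and after TMM scaling, the 9 antagonists summed to 9.98 ± 0.862 CPM per kb in the controls and 23.7 ± 1.90 CPM per kb in K5-RANKL (SD, n = 3). Relative to the summed ligand level of the same library, a ratio that does not depend on scaling, they were 0.448, 0.537 and 0.411 in the controls and 1.18, 1.37 and 1.17 in K5-RANKL. Every K5-RANKL ratio was above every control (exact permutation p = 0.1, the smallest possible). Without Dkk3 the ratios were 0.356, 0.431 and 0.332 in the controls and 0.984, 1.16 and 0.997 in K5-RANKL, also without overlap (exact permutation p = 0.1), so that the place of the ratio above or below 1 in K5-RANKL 1 and 3 rests on Dkk3. Sfrp1 made up 35.5 ± 0.464% of the antagonist sum in the controls and 55.0 ± 2.30% in K5-RANKL, and Sfrp5 13.3 ± 2.14% and 1.73 ± 0.344%.

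Of the intracellular genes, Lef1 and Tcf7, nuclear partners of beta-catenin, were called higher. Lef1 had 9.77, 8.34 and 9.39 CPM in the controls and 15.3, 17.9 and 15.9 CPM in K5-RANKL. The groups did not overlap (log2 fold change 0.83 ± 0.11, edgeR adjusted p = 4.8e-06). Tcf7 had 26.3, 30.1 and 25.8 CPM in the controls and 48.7, 46.9 and 42.0 CPM in K5-RANKL. It too was apart (log2 fold change 0.75 ± 0.09, edgeR adjusted p = 9.96e-07). The related factors Tcf7l2 and Tcf7l1, of the further pathway list and named after their values were seen, did not rise under TMM scaling. Tcf7l2 was called lower (log2 fold change -0.41 ± 0.12, edgeR adjusted p = 0.007, turning to 0.58 by library totals), and Tcf7l1 was not called (-0.10 ± 0.13, and 0.89 by library totals). Lef1 and Tcf7 are also known from T cells, whose markers were higher in 7 of 8, and the part of those cells was not tested.

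Axin2, a feedback inhibitor that is widely used as a readout of beta-catenin signalling, was not called. It had 5.81, 4.32 and 3.21 CPM in the controls and 5.64, 5.56 and 4.61 CPM in K5-RANKL. The groups overlapped through control 1, which was the highest of all libraries. The log2 fold change was 0.26 ± 0.20 (edgeR adjusted p = 0.251), and 0.50 (adjusted p = 0.042) without control 1. Ctnnb1, at 346 ± 7.81 and 385 ± 12.6 CPM, had a log2 fold change of 0.15 ± 0.07 (edgeR adjusted p = 0.0644), and was called only by voom (adjusted p = 0.0243) and by library totals. Axin1 was at 0.08 ± 0.08 on the log2 scale and Apc at -0.16 ± 0.08 (0.83 by library totals), neither called; Apc was called lower without control 1 (adjusted p = 0.0129).

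Promoter sequences were looked at for the members. RefSeq promoter windows (GRCm38.p6) were matched for 38 of the 59 genes, in 47 windows. The 250 bases before each annotated transcript start were searched on both strands for the TCF/LEF letters CTTTGAT and CTTTGAA and for NF-kB letters. NF-kB is the factor that RANKL signalling is known to activate. The NF-kB letters were strict forms of its consensus only, and looser forms were not searched. Over all 32851 windows, 7.48% held the TCF/LEF letters and 2.46% the strict NF-kB letters. Of the 38 genes, 3 held the TCF/LEF letters, Wnt11 (called higher), Wnt5b (not called) and Dkk1 (not tested), and 0 held the strict NF-kB letters. Counted by window, as the shares over all windows are, 3 of 47 held the TCF/LEF letters and 0 the strict NF-kB letters. A match is a description of these letters and not a site, and a window without one says nothing about either factor. A gene can have several transcript starts: 23 of the 47 windows lay wholly before the first base of the RefSeq gene, 9 partly and 15 within it. Printed are the parts before the gene for Fzd1, Dkk2 and Wnt11 (higher) and Sfrp5 (lower), 5′ to 3′ on the strand of the gene, to show the letters searched for members that moved. Capitals mark the TCF/LEF letters of Wnt11, read here as ATCAAAG, which end 16 bases before the gene. The sequences lie at chr5:4758217-4758466 (minus strand) for Fzd1, chr3:132085042-132085265 (plus) for Dkk2, chr7:98834862-98835083 (plus) for Wnt11 and chr19:42202253-42202502 (minus) for Sfrp5, and hold no annotated exon.
Fzd1: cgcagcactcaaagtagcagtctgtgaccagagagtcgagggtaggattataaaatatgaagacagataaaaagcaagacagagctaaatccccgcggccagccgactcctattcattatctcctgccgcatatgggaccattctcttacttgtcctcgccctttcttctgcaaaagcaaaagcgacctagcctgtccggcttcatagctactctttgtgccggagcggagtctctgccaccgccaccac
Dkk2: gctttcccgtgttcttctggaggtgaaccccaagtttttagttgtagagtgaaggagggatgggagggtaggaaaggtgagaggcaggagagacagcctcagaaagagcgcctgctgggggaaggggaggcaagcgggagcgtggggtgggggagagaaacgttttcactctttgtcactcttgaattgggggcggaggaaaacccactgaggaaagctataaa
Wnt11: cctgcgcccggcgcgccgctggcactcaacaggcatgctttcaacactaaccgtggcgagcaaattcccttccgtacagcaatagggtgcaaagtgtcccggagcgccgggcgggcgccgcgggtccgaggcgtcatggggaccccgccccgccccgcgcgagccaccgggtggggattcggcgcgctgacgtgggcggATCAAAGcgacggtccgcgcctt
Sfrp5: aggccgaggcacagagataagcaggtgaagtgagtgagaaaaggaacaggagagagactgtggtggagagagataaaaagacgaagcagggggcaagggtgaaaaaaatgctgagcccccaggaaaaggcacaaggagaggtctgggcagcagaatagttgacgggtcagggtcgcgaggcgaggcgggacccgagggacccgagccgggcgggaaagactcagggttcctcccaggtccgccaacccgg

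A further 80 genes of the pathway, listed by function, put these members in context. Of these, 68 passed the filter, 30 were called higher and 18 lower, beside 34.2% and 32.1% of all tested genes, with a median log2 fold change of 0.18 beside 0.01. By library totals 61 were higher and 2 lower, beside 83.5% and 4.97% of all tested genes. Extracellular and membrane modulators were 8 higher and 2 lower of 14, and genes of planar polarity and noncanonical signalling 8 and 4 of 16. Cytoplasmic and nuclear genes were 6 higher and 8 lower of 25. Commonly used targets of beta-catenin were 8 higher and 4 lower of 13, and 12 higher and 0 lower by library totals, a scaling under which most genes were higher. Leaving out 1 or another library removed the higher calls of Nkd2, Myc, Cd44 and Tnfrsf19 and the lower call of Ccnd1. Twist1, not called, was called higher without control 1.

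Wisp2, a matricellular protein also called Ccn5, changed most of these target genes. It had 1.20, 1.28 and 0.548 CPM in the controls and 25.0, 20.7 and 21.9 CPM in K5-RANKL. The groups were far apart (log2 fold change 4.52 ± 0.19, edgeR adjusted p = 2.16e-12). Its relative Wisp1 was also higher, at 1.36 ± 0.14 on the log2 scale, while Id2, an inhibitor of basic helix-loop-helix factors, was at -0.74 ± 0.09 and turned to 0.26 by library totals. Nkd1, named after its values were seen, was the 1 target called at least 2-fold lower, at -1.40 on the log2 scale. By library totals Nkd1 was at -0.40 and not called. Fibroblast marker sums were higher in the same libraries, and their part in the rises of Wisp1 and Wisp2 was not tested. Among modulators, Tpbg, a membrane protein that inhibits Lrp6 signalling, was higher (log2 fold change 2.53 ± 0.21) and so was the proteoglycan Sdc1 (0.85 ± 0.10). Tspan12, the Norrin co-receptor that works with Fzd4, fell from 107, 96.4 and 95.8 CPM to 32.7, 43.7 and 39.5 CPM (log2 fold change -1.37 ± 0.10, edgeR adjusted p = 2.64e-09). It and Notum were the only genes of the 68 still called lower by library totals. Notum, an enzyme that removes the lipid from Wnt ligands and was singled out after its values were seen, had 1.66, 0.982 and 1.41 CPM in the controls and 0.0415, 0 and 0.140 CPM in K5-RANKL. That is 46 reads against 4, and the groups did not overlap (log2 fold change -4.29 ± 0.56, edgeR adjusted p = 2.88e-06). Among cytoplasmic and nuclear genes the beta-catenin cofactor Bcl9 was higher (1.11 ± 0.10), as were the kinase Csnk1g1 (0.68 ± 0.09) and the beta-catenin inhibitor Ctnnbip1 (0.71 ± 0.12). Of the noncanonical class, Nfatc1, a calcium-dependent factor also known downstream of RANKL in osteoclasts, was higher (1.19 ± 0.08), as was the polarity gene Vangl1 (0.91 ± 0.12), while Celsr2 was lower (-0.58 ± 0.08) and turned to 0.42 by library totals.

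**Figure D4:**
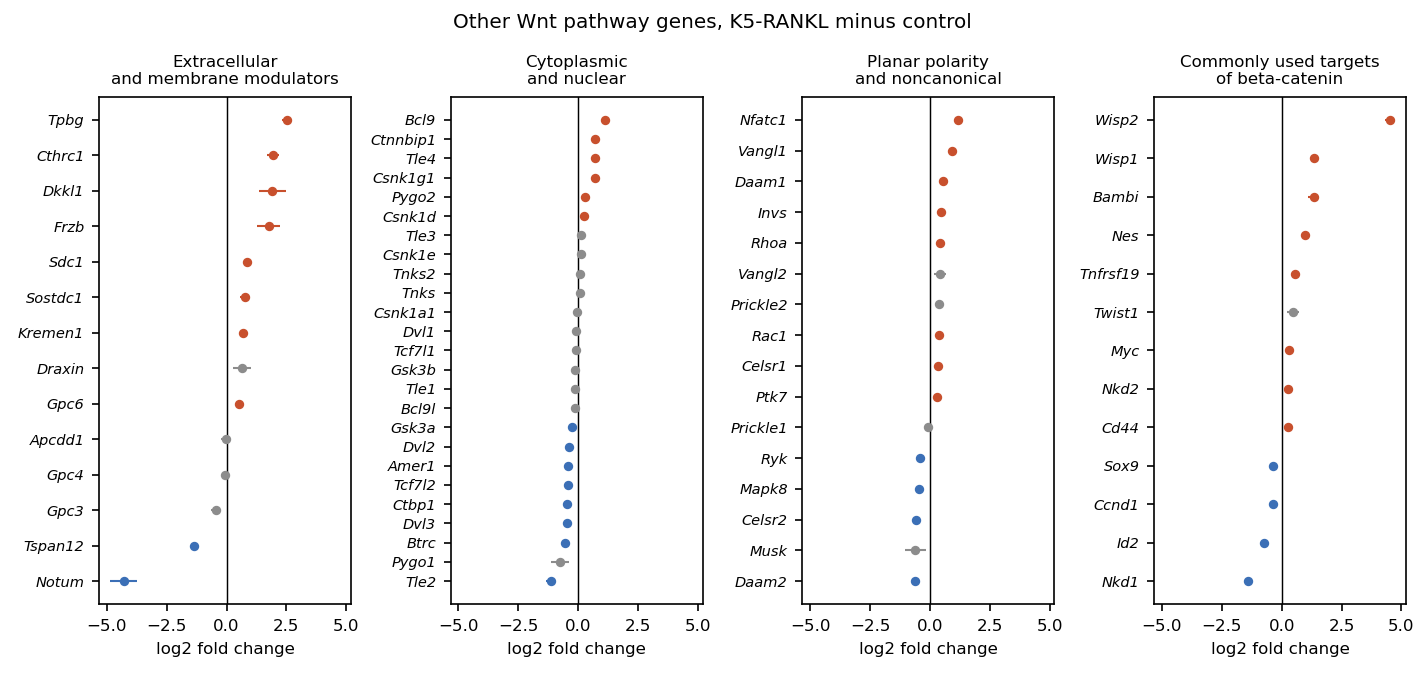
Log2 fold change (K5-RANKL minus control, TMM scaling, horizontal axis) of the 68 further Wnt pathway genes tested, in 4 classes, with bars of ± 1 standard error and points in red for genes called higher, blue for called lower and grey for not called. Wisp2 (4.52) and Notum (-4.29) lie farthest out, and by library totals all genes move up by about 1, so that only Notum and Tspan12 remain called lower.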

How the data were processed

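RNA-seq counts of mouse salivary gland were analysed in 3 control and 3 K5-RANKL libraries, grouped by the genotype label. The authors deposited raw counts per gene. Reads were aligned with STAR to mm10, per the submitters' processing notes; the sources used here name neither the counting tool nor its strand setting, and the exons of 8 of the 59 genes overlap a gene on the opposite strand (Wnt7b, Wnt11, Fzd5, Fzd6, Rspo3, Sfrp2, Lef1 and Axin2). Libraries were made from 250 ng of RNA with a stranded mRNA kit, per the labels' protocols.

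Genes were filtered with filterByExpr (minimum count 10), scaled by TMM and compared over all 14044 remaining genes by the two-sided quasi-likelihood test of edgeR 4.0.16 with robust estimation, no covariates and Benjamini-Hochberg adjustment. The SE of a log2 fold change is its size over the root of the F statistic. Levels per kilobase use merged GENCODE M21 basic exons. Other tools were R 4.3.3, limma 3.58.1 and DESeq2 1.42.0. The test was tested on simulated data. Pairs of libraries within a group differed by a chi-square of 6.26 to 38.3 per gene, so none was a second copy. Control 1 lay apart from the other controls, at 37.0 from control 2 and 38.3 from control 3. Controls 2 and 3 differed from each other by 6.26. P-values measure the spread between pools of mice. The members and lists were chosen with earlier results of these data known. Named are all 59 members, with every library's value for those called with at least 2-fold change or a mean of at least 5 CPM. In each class of other pathway genes, up to 3 called genes with the smallest p are named. Further genes of these classes are named for changed calls or after their values were seen. Alternatives were RLE, upper-quartile and library-total scaling, TMM without the 20 most abundant genes, no filter, a filter of 50 counts in 3 libraries, DESeq2, voom with quality weights, no robust estimation and leaving out each library.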

Additional observations from a re-analysis of the deposited data

How the results depend on the processing

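Of the 34 members called, 19 kept the call and direction in every setting in which they were tested, and 8 lost either only by library totals. By library totals 34 members were called higher and 4 lower, and 61 and 2 of the other pathway genes, beside 83.5% and 4.97% of all tested genes. The member and pathway counts stayed within 1.5 times of the main ones in all other settings run. The log2 fold changes that turned positive by library totals were Fzd5 0.21, Lgr6 0.45, Znrf3 0.10, Fzd3 0.29, Apc 0.83, Lrp5 0.87, Lgr4 0.19, Wnt2b 0.89, Wls 0.81, Fzd10 0.27, Lrp6 0.96, Fzd4 0.41 and Porcn 0.14. With upper-quartile scaling Fzd7 was at -0.0020. Leaving out 1 library changed the sign of 5 genes that were not called, with ranges of -0.046 to 0.16 for Wnt5b, -0.062 to 0.70 for Rspo1, -0.11 to 0.0060 for Lrp6, -0.057 to 0.051 for Fzd7 and -0.26 to 0.26 for Wnt2b. No paired analysis was possible because the labels give no replicate numbers shared between groups. Depth limits the 12 members below the filter, and 3 pools in a group limit exact permutation tests to p = 0.1.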
